A study of Homo sapiens with 96 samples.

Results

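The genes described here are 38 genes of homologous recombination and of the Fanconi anemia pathway, chosen by symbol from a list and found in a table of raw read counts with 44659 gene entries. All 38 were present in the table, 34 had at least 1 count in every library, and 37 passed the filter on low counts. TOP3A, a topoisomerase that unlinks recombining DNA molecules, did not pass, with a median of 2 and at most 12 counts per library. Read counts came from 96 QuantSeq libraries of cytoplasmic RNA from A375, an established BRAF-mutant skin melanoma line. QuantSeq reads the 3′ ends of polyadenylated transcripts. Cells were kept for 18 h in DMSO or in MAPKi, a mixture of 500 nM vemurafenib and 500 nM cobimetinib, which inhibit BRAF and MEK. They then received vehicle, cycloheximide at 100 µg/ml (an inhibitor of translation elongation), triptolide at 25 µM (an inhibitor of transcription) or both, with cycloheximide added 5 min before triptolide. Cells were collected at 0, 1, 3 and 5 h, giving 32 groups of 3 libraries. All groups are the same line, and MAPKi is a single mixture, so the effect of either drug alone was not measured.

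Homologous recombination repairs broken DNA by copying an intact sister sequence. The break is sensed and trimmed to a protruding strand, BRCA2 and its partners prepare it for pairing with the intact copy, and helicases and nucleases then separate the joined molecules. The Fanconi anemia pathway acts on crosslinks between DNA strands: a core complex attaches ubiquitin to FANCD2 and FANCI, and the lesion is handed to nucleases and to recombination. Many of these genes are transcribed most strongly around S phase, and E2F factors and CHR elements are known parts of such promoters.

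The upstream sequences of members that hold an E2F motif are shown first, since E2F factors are a known part of many such promoters. The relation of these letters to the values was not tested. RefSeq promoters (250 bases before and 50 bases after the transcript start, build GRCh38.p14) were found for 34 of the 38 members. The motifs TTTGGCGC, TTTCCCGC, TTTCGCGC and TTTGCCGC were searched on both strands. At least 1 of them occurred in 5 of the 34 promoters (14.7%), against 3.37% of 27305 promoters and 5.46% of the 11024 promoters of tested genes. The 5 members were FANCA, FANCC, RMI1, FANCD2 and XRCC2. In FANCD2 and XRCC2 the match reached or lay beyond the transcript start. The CHR letters TTTGAA or TTTAAA occurred in 6 of 34 (17.6%), near the 15.8% of tested genes. A match is not a shown binding site. The 250 bases upstream of the start follow for the other members with a match, each read 5′ to 3′ on the gene's own strand with the motif, or its complement read on the other strand, in capitals. They lie at chr9:95317710-95317959 on the minus strand for FANCC, at chr9:83980555-83980804 on the plus strand for RMI1 and at chr16:89816648-89816897 on the minus strand for FANCA.
FANCC: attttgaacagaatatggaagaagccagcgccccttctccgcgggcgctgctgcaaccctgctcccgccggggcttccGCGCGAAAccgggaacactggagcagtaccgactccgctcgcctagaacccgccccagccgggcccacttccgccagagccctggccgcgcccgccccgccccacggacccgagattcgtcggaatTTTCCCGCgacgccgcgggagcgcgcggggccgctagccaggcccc
RMI1: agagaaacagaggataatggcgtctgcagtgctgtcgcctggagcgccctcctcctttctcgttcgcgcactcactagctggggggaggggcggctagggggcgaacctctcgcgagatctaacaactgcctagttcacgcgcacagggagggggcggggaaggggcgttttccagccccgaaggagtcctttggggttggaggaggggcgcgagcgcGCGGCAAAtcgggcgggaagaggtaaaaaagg
FANCA: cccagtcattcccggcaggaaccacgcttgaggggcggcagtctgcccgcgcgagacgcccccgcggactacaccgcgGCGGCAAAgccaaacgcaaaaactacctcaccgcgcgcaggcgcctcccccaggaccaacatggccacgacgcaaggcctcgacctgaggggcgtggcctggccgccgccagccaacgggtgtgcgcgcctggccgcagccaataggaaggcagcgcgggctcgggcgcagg

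FANCC holds a TTTCGCGC match on the opposite strand starting 172 bases before the start and a TTTCCCGC match 46 bases before it. RMI1 holds the complement of TTTGCCGC 32 bases before the start, and FANCA holds it 172 bases before the start. Under MAPKi the levels of these genes changed by −0.90 for FANCC, −0.71 for RMI1 and −1.17 for FANCA on the log2 scale, within the range of the members without a match. Of the other members with a match, FANCD2 changed by −0.83, also within that range. XRCC2 changed by −1.90, the largest fall of all members and past that range.

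The smallest library held 2381351 counts, the largest 12520154 and the median library 7143396. The labels and the data matched on the drug and on the cell type. In vehicle libraries 12 of 12 tested MAPK target genes were lower in MAPKi, with a median log2 difference of −4.09. The summed level of 10 melanoma and melanocyte genes was 2985 to 4656 CPM (counts scaled to library size by TMM) in DMSO and 3944 to 6231 in MAPKi. Of the 9 that were tested 7 were higher in MAPKi, among them DCT at 36.2 to 63.2 CPM in DMSO and 1317 to 2624 CPM in MAPKi, and S100B and VIM were lower. The endothelial markers CDH5 and PECAM1 had no count in any vehicle library, and the epithelial markers CDH1 and EPCAM had none in DMSO and a summed level of at most 0.652 CPM in MAPKi. Of the keratinocyte markers KRT1 and KRT5 had no count, while KRT14 had 0 to 0.450 CPM in DMSO and 0.703 to 2.89 CPM in MAPKi, with no overlap. Of the leukocyte markers CD3E had no count, and PTPRC reached 1.36 CPM in DMSO and 1.30 CPM in MAPKi. The nuclear RNAs MALAT1 and NEAT1 took 0.526 to 0.921% of counts in the 48 DMSO libraries and 1.33 to 2.26% in the 48 MAPKi libraries, which do not overlap. Mitochondrial rRNA took 1.93 to 4.54% and 3.18 to 7.12%. The part of these markers and shares in the results below was not tested. Nothing states that replicates came from separate cultures, so p-values measure the spread between these libraries, which may be technical.

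Levels after MAPKi were compared in the vehicle arm over all 4 times, 12 libraries against 12, in the same unit. Most members were lower: 29 of 37 fell and 2 rose at an adjusted p under 0.05 in the quasi-likelihood test of edgeR. By time, 27, 26, 25 and 20 members were lower at 0, 1, 3 and 5 h, beside 24.0, 24.3, 23.6 and 23.6% of genes. The background over all times was 33.1% of 14948 genes lower and 35.8% higher. The median log2 difference was −0.81 over the members and 0.05 over all genes. In bulk RNA, fewer cells of a kind and less RNA per cell cannot be told apart. Of 19 proliferation genes, 19 were lower as well, with a median of −0.98 and a summed level of 5744 to 6435 CPM in DMSO and 2722 to 4357 CPM in MAPKi. Whether the members fell apart from that shift was not tested.

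**Figure D1:**
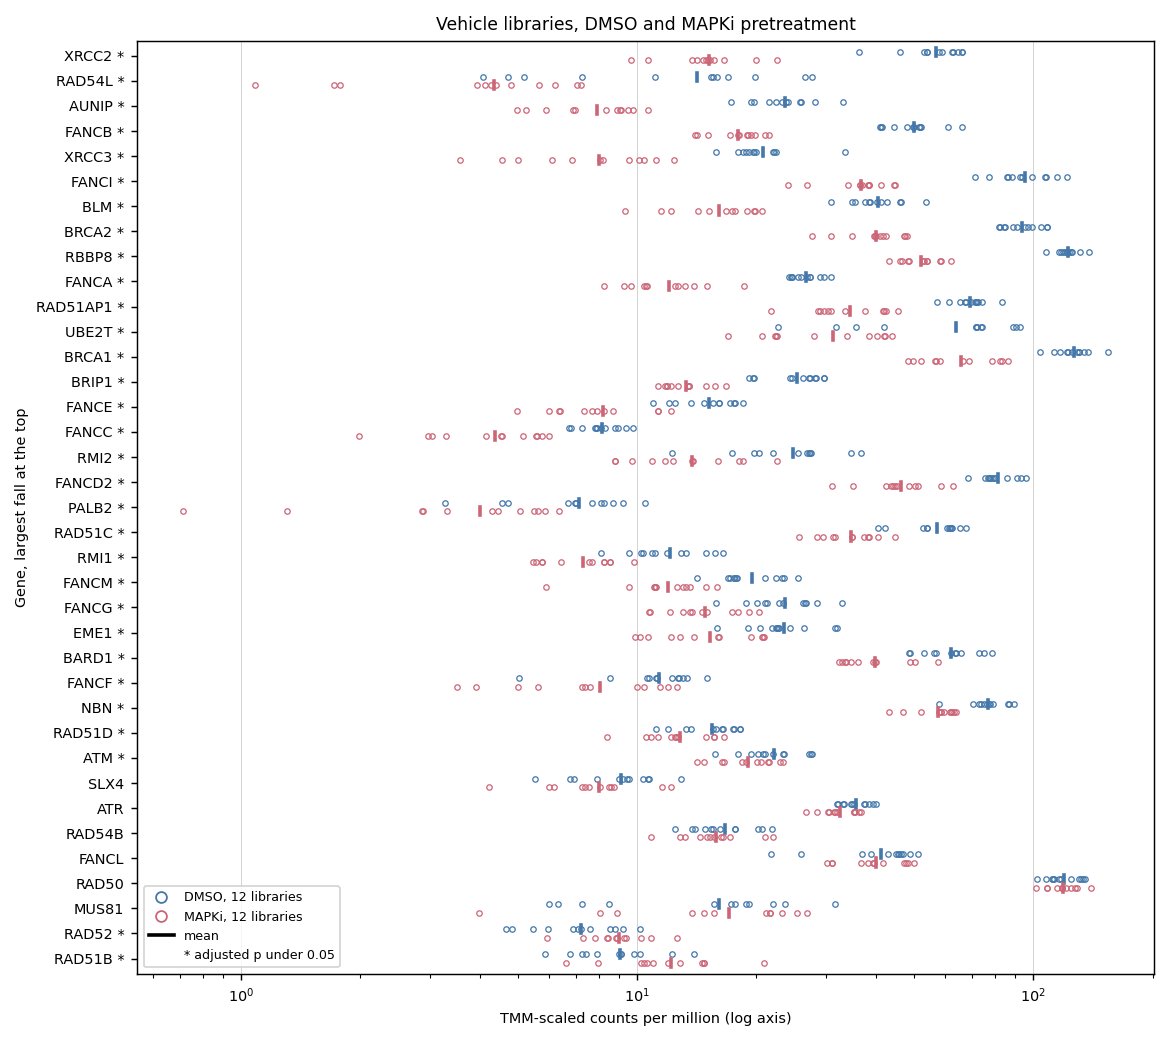
Level of the 37 tested members in TMM-scaled CPM (log axis) in the vehicle arm, 12 DMSO libraries in blue and 12 MAPKi libraries in red, with bars for the means. Genes run from the largest fall, XRCC2 (log2 difference −1.90), to RAD51B (0.42), and an asterisk marks an adjusted p under 0.05.

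XRCC2, XRCC3, RAD51B, RAD51C and RAD51D are related proteins that assist the search for the intact copy. XRCC2 (chromosome 7, 152644776 to 152676193) had the largest fall of all members. It measured 36.4 to 66.1 CPM in DMSO (median 58.4) and 9.67 to 22.5 CPM in MAPKi (median 15.0), so the groups did not overlap, and counts were 49 to 551 per library. The log2 difference was −1.90 ± 0.08 (SE, adjusted p = 4.68e-37). XRCC3 (chromosome 14, 103697609 to 103715504, overlapping exons of KLC1 on the other strand) had 15.8 to 33.5 CPM in DMSO (median 19.7) and 3.56 to 12.4 CPM in MAPKi (median 8.14). These did not overlap either, with a difference of −1.42 ± 0.12 (SE, adjusted p = 8.23e-18). RAD51C and RAD51D fell by 0.72 and 0.28 on the log2 scale, the latter with −0.16 (adjusted p = 0.308) without replicate 3. RAD51B, the remaining gene of this group, went the other way, with 5.84 to 13.9 CPM in DMSO (median 9.03) and 6.62 to 20.9 CPM in MAPKi (median 11.5). Its groups overlapped, and the difference was 0.42 ± 0.12 (SE, adjusted p = 0.00197), but 0.19 (adjusted p = 0.313) without replicate 1 and 0.26 (adjusted p = 0.431) with vehicle at 0 h only.

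Among the genes that help strand exchange, RAD54L, a motor protein that moves along DNA, had 4.09 to 27.6 CPM in DMSO (median 15.5) and 1.09 to 7.22 CPM in MAPKi (median 4.34). The ranges overlapped and the spread within each group was wide, at 14.2 ± 8.01 against 4.35 ± 2.03 CPM (SD, n = 12), for a log2 difference of −1.62 ± 0.32 (SE, adjusted p = 5.49e-06). RAD54L shares exonic sequence with LRRC41 on the other strand. RAD51AP1, which stimulates strand pairing, fell by 1.03 on the log2 scale. RAD54B, a RAD54L relative, differed by −0.07 ± 0.10 (SE, adjusted p = 0.54). RAD52, which anneals single strands, had 4.68 to 10.2 CPM in DMSO (median 7.14) and 5.93 to 12.6 CPM in MAPKi (median 8.89). It rose by 0.35 ± 0.13 (SE, adjusted p = 0.0136), with overlapping groups, but was not called without replicate 1 (0.33, adjusted p = 0.0822), without replicate 2 (0.38, adjusted p = 0.0508) or at 0 h only (0.07, adjusted p = 0.86).

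Of 6 genes of break sensing and resection, 4 fell. AUNIP (chromosome 1, 25831913 to 25859458), which recruits resection factors to breaks, had 17.2 to 33.0 CPM in DMSO (median 23.5) and 4.98 to 10.7 CPM in MAPKi (median 8.63). The groups did not overlap, and the log2 difference was −1.60 ± 0.11 (SE, adjusted p = 7.22e-22). AUNIP shares exonic sequence with MTFR1L on the other strand, and whether counting used the strand is not stated. Exons of another gene overlap on the same strand for AUNIP, ATR, BRCA1, FANCB, FANCG, RAD50, RAD51D, RAD52, RAD54B and RBBP8. Use of the strand would not separate these. RBBP8, which starts resection, fell by 1.23, and NBN, a subunit of the break-sensing complex, by 0.42, with exons of OSGIN2 on the other strand of NBN. RAD50, of the same complex, had a difference of −0.01 ± 0.04 (SE, adjusted p = 0.90). ATM, the kinase that signals breaks, fell by 0.22, a call lost in 7 of 9 alternatives and without each replicate in turn (−0.20 to −0.21, adjusted p = 0.0822 to 0.125). ATR, which signals exposed single strands, differed by −0.14 ± 0.06 (SE, adjusted p = 0.054), or with the replicate number as a block by the same amount and past the threshold (adjusted p = 0.0391).

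In the Fanconi core group with its ubiquitin-conjugating enzyme UBE2T, 8 of 9 genes fell, with a median of −0.90. FANCB (chromosome X, 14690388 to 14873255, overlapping exons of GLRA2 on the other strand), part of the catalytic module, had 41.0 to 66.1 CPM in DMSO (median 49.8) and 14.0 to 21.5 CPM in MAPKi (median 18.5). There was no overlap, and the difference was −1.47 ± 0.09 (SE, adjusted p = 1e-26). FANCL, the ubiquitin ligase itself, differed by −0.04 ± 0.11 (SE, adjusted p = 0.78), while UBE2T fell by 1.00 on the log2 scale. FANCF fell by 0.51, and by 0.29 (adjusted p = 0.128) without replicate 2. FANCI (chromosome 15, 89243945 to 89317261, overlapping exons of POLG on the other strand), a ubiquitylated target of the core, had 71.4 to 121 CPM in DMSO (median 93.3) and 24.0 to 44.7 CPM in MAPKi (median 37.5). The groups were separate, with a difference of −1.38 ± 0.08 (SE, adjusted p = 2.08e-26), and its partner FANCD2 fell by 0.83. Exons on the other strand also overlap FANCC (AOPEP), FANCL (VRK2), FANCA (ZNF276) and FANCD2 (FANCD2OS). The same holds for ATM, ATR, BLM, BRCA1, PALB2, RAD50, RAD51B, RAD51D, RMI2 and SLX4.

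All 5 genes of the BRCA group fell, from BRCA2 at −1.24 to BARD1, the partner of BRCA1, at −0.64. BRCA1, BRIP1 (a helicase bound to BRCA1) and PALB2 (the bridge to BRCA2) lay between, at −0.97, −0.93 and −0.81. The 3 tested dissolution genes, which untangle joined molecules, fell as well, with BLM, the helicase, at −1.35. Of the crossover nuclease group only EME1, a nuclease subunit, was called, with −0.65, while its partner MUS81 differed by 0.11 ± 0.23 (SE, adjusted p = 0.71) and the scaffold SLX4 by −0.19 ± 0.13 (SE, adjusted p = 0.19). MUS81 overlaps exons of CFL1 and EFEMP2 on the other strand, so its value is uncertain. Among 59 tested other genes of the pathway, 38 fell and 10 rose, with a median of −0.47. TEX15 (−2.39) and the nuclease EXO1 (−1.65) had the largest falls, and BABAM2 (0.98) the largest rise.

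At 0 h, just after the inhibitors were added, each inhibitor arm was compared with vehicle as the mean of both pretreatments. By edgeR 0 of 14948 genes differed in any of these arms. A difference in only 1 pretreatment, or of opposite sign in each, could be missed, and the pretreatments were not tested apart. At an unadjusted p under 0.05, 428 were higher and 441 lower with triptolide, 220 and 221 with cycloheximide, and 350 and 309 with both. DESeq2 called 1 gene with triptolide, 1 with cycloheximide and 0 with both, and 0 members.

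Decay was measured after triptolide, as the mean of 3 and 5 h against vehicle at 0 h in the same pretreatment. Counts were scaled to 36 genes called stable by a rule adapted from the study. It keeps genes whose share of a library's counts after triptolide was at least 1.1 times that at 0 h. Here this was required at both 3 and 5 h, in every replicate. The study words it as after 3 or 5 h, and taking either time gave 526 genes. The scaling genes were thus chosen for a rise in these same libraries, which by itself moves scaled counts after triptolide down. None of the 36 stable genes was a member. In DMSO 28 of 37 members fell, against a background of 48.7% of genes, and in MAPKi 29 fell, against 56.1% of genes lower and 1.28% higher. No member rose under this scaling, but the choice of scaling genes works against a rise, so nothing is concluded from that. TMM, which centres the median gene near 0 (0.00 in DMSO and 0.05 in MAPKi), left 15 members lower and 1 higher in DMSO and 13 lower and 4 higher in MAPKi. The calls over all genes were 195 higher and 7273 lower in DMSO against 1868 and 3093 with TMM. For MAPKi they were 191 and 8385 against 2927 and 3088. With the 526 genes stable at 3 or 5 h, 29 members fell in DMSO and 28 in MAPKi. The median log2 change of the members was −0.73 in DMSO and −0.83 in MAPKi, while that of all genes was −0.47 and −0.59. At 5 h the median member kept 56.0% of its initial level in DMSO (range 4.63 to 92.6%) and 46.6% in MAPKi (5.38 to 94.1%). By group, the 5 BRCA genes all fell in DMSO, with a median of −1.39, and the 3 tested dissolution genes with a median of −1.26. The 9 core genes had a median of −0.51, with 4 of them called, and of FANCD2 and FANCI only FANCD2 was called in DMSO, where TMM turned its −0.43 into 0.05.

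AUNIP decayed most in both pretreatments. Its scaled counts in DMSO were 175, 170 and 139 at 0 h and 8.85, 11.0 and 2.51 after 5 h of triptolide. In MAPKi they were 43.9, 51.8 and 36.2 at 0 h and 2.86, 0 and 4.23 at 5 h. The groups did not overlap, with 4.63 ± 2.75% left in DMSO and 5.38 ± 4.91% left in MAPKi (SD, n = 3), the latter from 0 to 4 counts per library. The fitted changes were −3.22 ± 0.22 (SE, adjusted p = 1.1e-22) and −3.38 ± 0.30 (SE, adjusted p = 1.1e-16). At 1 h of triptolide 0 members were called in either pretreatment, where 0.823% of genes were lower in DMSO and 1.57% in MAPKi. At 3 h 24 members were lower in DMSO (32.7% of genes) and 23 in MAPKi (41.8%), and at 5 h 31 (49.3%) and 29 (55.1%).

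FANCF, an adaptor in the core complex, came next. It had 95.5, 92.8 and 79.1 scaled counts at 0 h and 7.38, 8.66 and 14.4 at 5 h in DMSO, and 55.2, 37.2 and 25.4 at 0 h and 2.86, 8.65 and 1.06 at 5 h in MAPKi. The ranges were apart in both, and the changes were −2.58 ± 0.28 and −2.53 ± 0.34 (SE, adjusted p = 1.2e-12 and 5.5e-10). FANCF shares exonic sequence with GAS2 on the other strand. PALB2 had 63.2, 67.6 and 73.9 scaled counts at 0 h and 7.38, 16.5 and 10.7 at 5 h in DMSO, a change of −2.26 ± 0.39 (SE, adjusted p = 1.2e-06). In MAPKi PALB2 had 37.8, 5.31 and 32.3 at 0 h and 7.86, 5.19 and 0 at 5 h, so that the groups overlapped, with a change of −2.31 ± 0.48 (SE, adjusted p = 2.3e-05). FANCM, the translocase that anchors the core complex on DNA, had 82.7, 118 and 98.7 at 0 h and 15.7, 22.5 and 15.9 at 5 h in MAPKi. Its ranges did not overlap and its change was −1.79 ± 0.20 (SE, adjusted p = 6.7e-13).

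BARD1 (chromosome 2, 214725646 to 214809683, with no overlapping gene) was the only member whose decay differed between pretreatments, where 0.415% of genes had a slower and 2.76% a faster decay in MAPKi. Its scaled counts in DMSO were 444, 454 and 397 at 0 h, 121, 123 and 113 at 3 h, and 64.9, 85.0 and 77.2 at 5 h. In MAPKi they were 258, 240 and 244 at 0 h, 86.3, 113 and 122 at 3 h, and 65.0, 64.0 and 66.7 at 5 h. The 5 h values thus lay in the same range after a start that was higher in DMSO, and 17.5 ± 2.35% and 26.3 ± 0.538% remained (SD, n = 3). The change was −2.18 ± 0.10 in DMSO and −1.57 ± 0.11 in MAPKi, a difference of 0.61 ± 0.15 (SE, adjusted p = 0.0107). The call was lost in 6 of 12 alternatives, including without replicate 2 (0.57, adjusted p = 0.135), without replicate 3 (0.66, adjusted p = 0.173) and with the triptolide arm at 0 h as the start (0.30, adjusted p = 0.311). In vehicle cells of the MAPKi pretreatment BARD1 also rose by 0.39 ± 0.10 (SE, adjusted p = 0.0102) from 0 h to the mean of 3 and 5 h. The median decay difference was −0.06 over the members and −0.11 over all genes. Both signs turned under TMM scaling, to 0.11 and 0.06, where 134 genes were called slower and 193 faster in MAPKi in place of 62 and 412, and mitochondrial rRNA scaling called 54 and 1569.

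**Figure D2:**
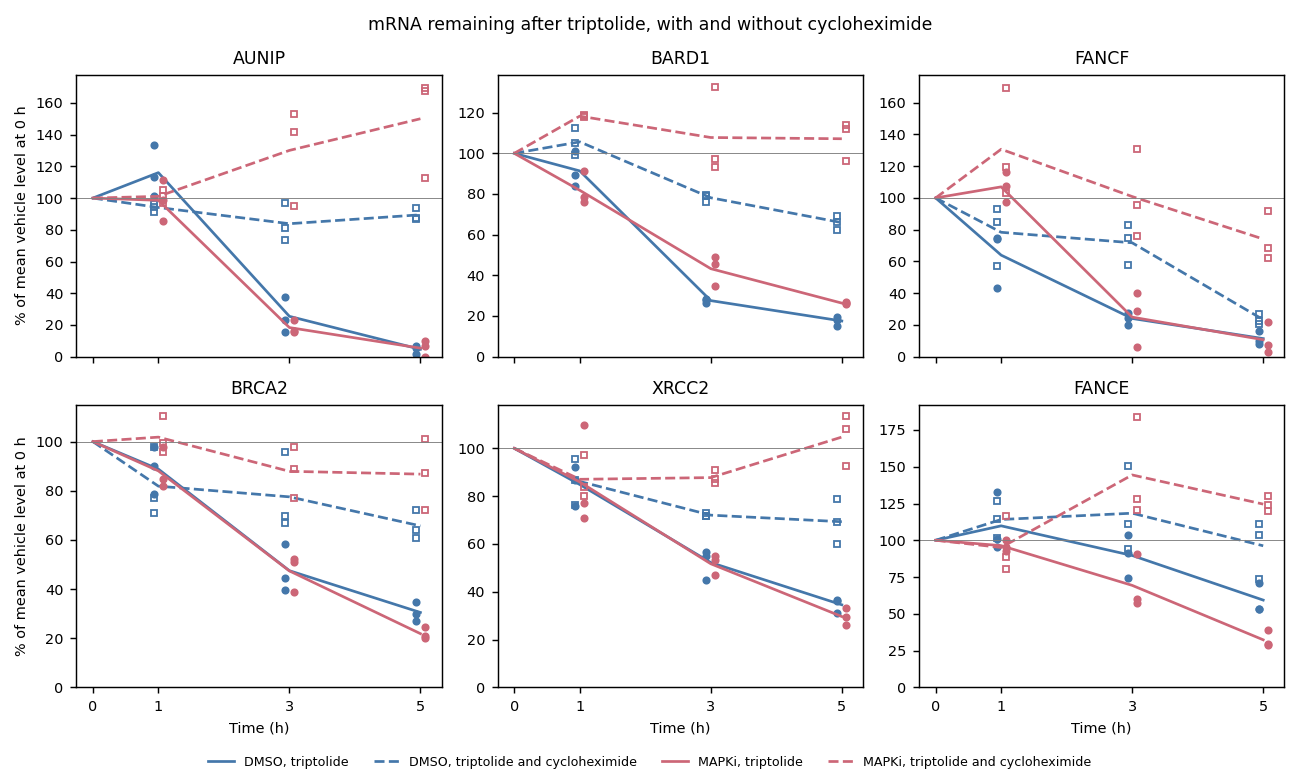
Percent of the mean vehicle level at 0 h that remained for 6 members after triptolide (solid lines, filled circles) or triptolide with cycloheximide (dashed lines, open squares), against time in hours. Lines join the means of 3 libraries, DMSO in blue and MAPKi in red, and AUNIP is near 5% after 5 h of triptolide in both pretreatments but at 89.5% and 150% with cycloheximide.

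Cycloheximide was added before triptolide to ask how far the decay went along with translation. The effect was taken as triptolide with cycloheximide minus triptolide alone, over 3 and 5 h, so it shares the triptolide libraries with the decay. In DMSO 21 of 37 members were higher with cycloheximide, against a background of 28.4%, and in MAPKi 30 were higher, against 41.4%. None was lower. Under TMM 12 and 15 members were higher and none lower, and over all genes the calls moved from 4247 higher and 70 lower to 2238 and 1044 in DMSO. For MAPKi they moved from 6194 and 80 to 2825 and 2261. The median effect of the members was 0.40 in DMSO and 0.70 in MAPKi, and that of all genes 0.23 and 0.34. At 5 h of both inhibitors the median member stood at 75.3% of its initial level in DMSO (range 23.3 to 113.6%) and at 90.1% in MAPKi (35.1 to 150.0%). At that point 15 members were below their initial level in DMSO, against 21.8% of genes, and 3 in MAPKi, against 16.4%, namely ATM, PALB2 and RBBP8. FANCI was above it in MAPKi, as 1.66% of genes were, by 0.46 ± 0.17 (SE, adjusted p = 0.040).

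AUNIP had the largest effect. In DMSO the triptolide libraries at 5 h held 8.85, 11.0 and 2.51 scaled counts and those with cycloheximide 151, 140 and 141. In MAPKi the values were 2.86, 0 and 4.23 without and 49.6, 74.5 and 73.8 with cycloheximide. The sets were far apart, and the effects were 3.01 ± 0.19 and 3.87 ± 0.25 (SE, adjusted p = 1.8e-23 and 1.5e-23). The difference of 0.85 ± 0.35 (SE, adjusted p = 0.14) did not pass the test.

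BARD1 followed in DMSO, with 299, 270 and 285 scaled counts at 5 h of both inhibitors, all above the triptolide libraries, and an effect of 1.70 ± 0.09 (SE, adjusted p = 4.9e-28). In MAPKi it had 238, 277 and 282, also above triptolide alone, and an effect of 1.67 ± 0.09 (SE, adjusted p = 1.6e-27). At 1 h it was the only member higher with cycloheximide in MAPKi, by 0.54 ± 0.12 (SE, adjusted p = 0.0161), where 0.341% of genes were higher and, in DMSO, 0.0401%. At 3 h 7 members were higher in DMSO and 16 in MAPKi (12.4 and 22.3% of genes), and at 5 h 19 and 28 (22.9 and 37.9%). FANCF had 24.0, 19.9 and 18.5 scaled counts at 5 h of both inhibitors in DMSO and 36.0, 24.4 and 26.8 in MAPKi, and all of these exceeded the triptolide values. Its effects were 1.30 ± 0.26 and 2.32 ± 0.29 (SE, adjusted p = 3.4e-05 and 1.1e-10). RAD52 had 26.6, 11.8 and 10.0 at 5 h of triptolide and 70.5, 44.9 and 41.7 with cycloheximide in DMSO, an effect of 1.21 ± 0.20 (SE, adjusted p = 8.5e-07) with separate ranges.

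**Figure D3:**
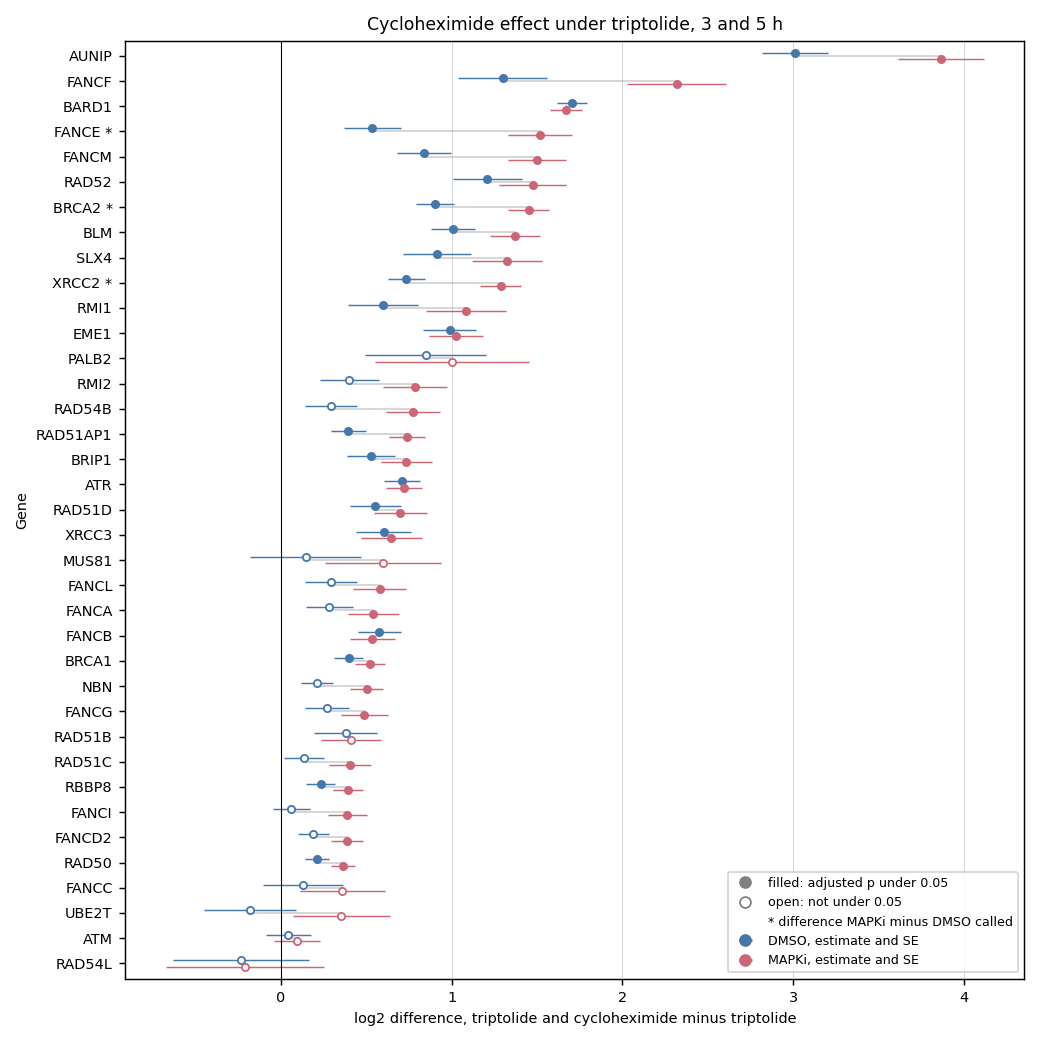
Log2 difference between triptolide with cycloheximide and triptolide alone for the 37 members, mean of 3 and 5 h with SE, DMSO in blue and MAPKi in red, filled where the adjusted p is under 0.05. The asterisks mark FANCE, XRCC2 and BRCA2, whose effect differed between pretreatments.

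The effect of cycloheximide under triptolide was larger in MAPKi for 3 of 37 members, near the background of 6.82%. It was smaller for none, against 0.294% of genes. Over all genes 1019 had the larger and 44 the smaller effect in MAPKi, or 421 and 132 under TMM, which called 1 member. FANCE (chromosome 6, 35452338 to 35467104, with no overlapping gene), which links the core complex to FANCD2, had 65.7, 49.6 and 49.6 scaled counts at 5 h of triptolide and 103, 95.9 and 68.3 with cycloheximide in DMSO. In MAPKi it had 14.3, 14.4 and 19.0 without and 61.1, 64.0 and 59.0 with cycloheximide. The sets were separate in both pretreatments. The effects were 0.54 ± 0.17 and 1.52 ± 0.19, and their difference was 0.98 ± 0.25 (SE, adjusted p = 0.00614). Without replicate 2 it was 0.78 (adjusted p = 0.174), and adjusted p-values over the alternatives ran from 0.00297 to 0.174.

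XRCC2 had 156, 157 and 133 scaled counts at 5 h of triptolide and 297, 258 and 339 with cycloheximide in DMSO. In MAPKi it had 37.2, 42.1 and 47.6 without and 154, 132 and 162 with cycloheximide, within the range of the 116, 167 and 145 of its start. The effects were 0.74 ± 0.11 and 1.29 ± 0.12, and the difference was 0.55 ± 0.16 (SE, adjusted p = 0.0193). Adjusted p-values over the alternatives ran from 0.0115 to 0.211, and the call was lost without replicate 1 (0.47), without replicate 2 (0.63) and without replicate 3 (0.60). BRCA2 (chromosome 13, 32315086 to 32400268) had 218, 256 and 197 without and 471, 446 and 529 with cycloheximide at 5 h in DMSO, and 70.0, 66.9 and 81.5 without and 290, 337 and 240 with it in MAPKi. All sets were separate. The effects were 0.90 ± 0.11 and 1.45 ± 0.12, and the difference was 0.55 ± 0.16 (SE, adjusted p = 0.0248), with a range of adjusted p-values from 0.0106 to 0.316, and no call without replicate 1 (0.52, adjusted p = 0.104) or without replicate 2 (0.39, adjusted p = 0.316). Of the 59 other pathway genes 6 were higher in this test, among them ERCC4 (0.72), a crosslink-cutting nuclease, and USP1 (0.61), which removes ubiquitin from FANCD2.

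Without triptolide, cycloheximide was compared with vehicle at 3 and 5 h. In DMSO 5 members were higher and 3 lower, against 18.3% and 13.4% of genes. In MAPKi 13 were higher and none lower, against 15.9% and 13.9%. The median member changed by −0.01 and 0.31, and the median gene by 0.01 and −0.01. The members higher in DMSO were RAD52, RAD54B, AUNIP, BLM and BARD1, and each of these was higher in MAPKi as well. The members lower in DMSO were FANCF, XRCC2 and FANCB. Leaving out 1 replicate ended the DMSO calls of BARD1 and BLM in each case (adjusted p = 0.11 to 0.174 and 0.0514 to 0.0978), of FANCB without replicate 1 or 2 (adjusted p = 0.0843 and 0.101) and of FANCF without replicate 3 (adjusted p = 0.114).

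**Figure D4:**
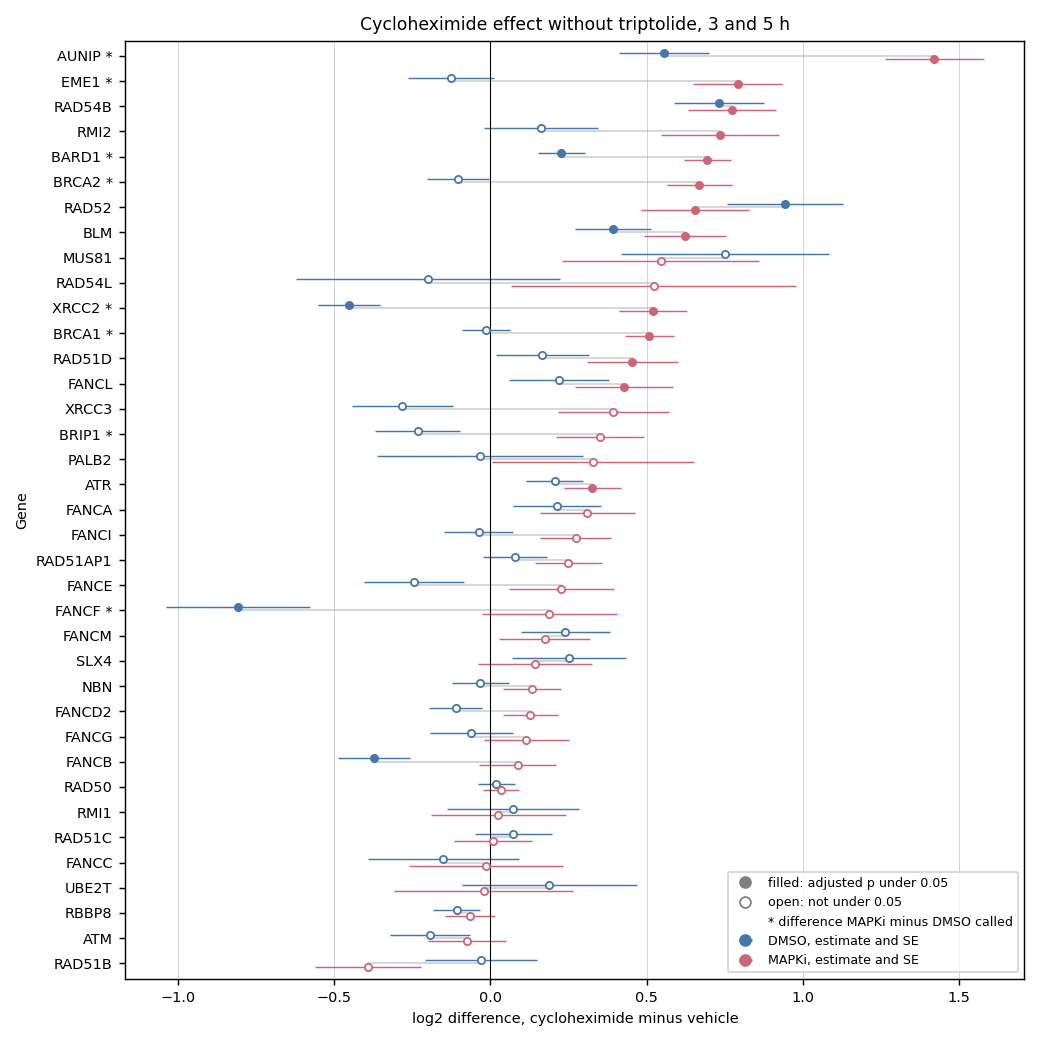
Log2 difference between cycloheximide and vehicle without triptolide for the 37 members, mean of 3 and 5 h with SE, DMSO in blue and MAPKi in red, filled where the adjusted p is under 0.05. Asterisks mark 8 members with a larger difference in MAPKi, and XRCC2 is called on opposite sides of 0, at −0.45 and 0.52.

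The response to cycloheximide alone differed between pretreatments for 8 of 37 members, all with the larger value in MAPKi, against a background of 4.64% larger and 6.60% smaller. Over all genes 693 had the larger and 986 the smaller value in MAPKi, or 1558 and 490 when scaled by total counts, which called 12 members. Genes shown by library below were chosen after their values were seen. Of 19 proliferation genes, 8 did so too, with a median of 0.35, and the part of this in the members' result was not tested. XRCC2 was lower with cycloheximide in DMSO and higher in MAPKi. At 5 h it had 64.4, 65.9 and 62.3 CPM in vehicle and 40.7, 37.2 and 47.2 CPM with cycloheximide in DMSO. In MAPKi it had 13.7, 15.2 and 9.67 CPM in vehicle and 23.4, 22.0 and 23.0 CPM with cycloheximide. The groups did not overlap in either pretreatment, on opposite sides. The changes were −0.45 ± 0.10 (SE, adjusted p = 0.00014) and 0.52 ± 0.11 (SE, adjusted p = 8.1e-05), and the difference was 0.97 ± 0.15 (SE, adjusted p = 4.66e-07). It was called in 8 of 8 alternatives. XRCC2 itself fell in MAPKi vehicle cells, by 0.48 ± 0.13 (SE, adjusted p = 0.0264) from 0 h to 3 and 5 h.

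The BRCA group held 4 of the 8 members. BRCA2 had 99.0, 96.7 and 95.3 CPM in vehicle and 95.6, 78.5 and 74.8 CPM with cycloheximide at 5 h in DMSO. In MAPKi it had 34.9, 42.4 and 30.8 CPM in vehicle and 52.6, 55.1 and 56.1 CPM with cycloheximide. Its values overlapped in DMSO and were separate in MAPKi, with a difference in response of 0.77 ± 0.14 (SE, adjusted p = 4.17e-05). BRCA1 had 58.2, 57.0 and 48.3 CPM in vehicle and 73.1, 75.7 and 79.5 CPM with cycloheximide in MAPKi at 5 h, again with no overlap. Its response was −0.01 ± 0.08 in DMSO and 0.51 ± 0.08 in MAPKi, a difference of 0.52 ± 0.11 (SE, adjusted p = 0.0003), and MAPKi vehicle cells themselves fell by 0.63 ± 0.09 (SE, adjusted p = 1.97e-06) from 0 h to 3 and 5 h. BARD1 and BRIP1 differed by 0.47 ± 0.11 and 0.58 ± 0.20 (SE, adjusted p = 0.0011 and 0.0383). BARD1 was not called without replicate 3 (0.41, adjusted p = 0.086), and BRIP1 was not without any of the replicates (adjusted p = 0.0759 to 0.272).

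EME1, the nuclease subunit, had 12.2, 10.2 and 13.9 CPM in vehicle and 20.7, 18.4 and 21.8 CPM with cycloheximide in MAPKi at 5 h, with no overlap. The difference from the response in DMSO was 0.92 ± 0.20 (SE, adjusted p = 0.000478). EME1 overlaps exons of LRRC59, and its vehicle level in MAPKi fell by 0.70 ± 0.17 (SE, adjusted p = 0.00959) over the same hours. AUNIP was higher with cycloheximide in both, by 0.56 ± 0.14 in DMSO and 1.42 ± 0.16 in MAPKi, and these differed by 0.87 ± 0.21 (SE, adjusted p = 0.0025), or 0.82 (adjusted p = 0.122) without replicate 1. FANCF was lower in DMSO, by −0.81 ± 0.23, and had 0.19 ± 0.22 in MAPKi, a difference of 1.00 ± 0.31 (SE, adjusted p = 0.0253) that was not called without replicate 1, 2 or 3 (adjusted p = 0.0655, 0.0944 and 0.213). In vehicle cells the drift from 0 h to 3 and 5 h was called for 1 member in DMSO, RAD50 at −0.26 (0.615% of genes were lower and 0.843% higher), and for 4 in MAPKi, those 4 being BARD1, BRCA1, EME1 and XRCC2 (1.31% higher and 1.40% lower).

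The translation-dependent decay (TDD) index puts the same libraries on the scale of the study: the scaled level with both inhibitors minus that with triptolide, divided by the vehicle level at 0 h. An index of 0 means that cycloheximide left the decay as it was, and 1 that cycloheximide added as much RNA as was there at the start. Slower decay of the initial RNA alone cannot give an index over 1. Why some values, such as those of AUNIP in MAPKi, lay over 1 was not tested. PALB2 did not reach the minimum of 10 scaled counts at 0 h, so 36 members had an index. The median member had 0.201 in DMSO and 0.357 in MAPKi, against 0.118 and 0.180 for the median gene. The index was higher in MAPKi for 35 members and lower for 1, RAD54L. The median gene was higher as well, and the share of all genes with a higher index is not given here, so this count is not particular to the members. After adjustment over 10673 genes 0 members passed (lowest adjusted p = 0.113, linear model fitted with limma), as did 0.122% of genes, all higher. At an unadjusted p up to 0.05, 10 members were higher and 0 lower, against 14.7% and 1.36% of genes. The direction over all genes rests on the scaling: 1568 genes were higher and 145 lower at that p, with a median difference of 0.07, and 804 and 675 under TMM, with a median of −0.01. The median member differed by 0.17, and by 0.11 under TMM, which left 5 members at that p.

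**Figure D5:**
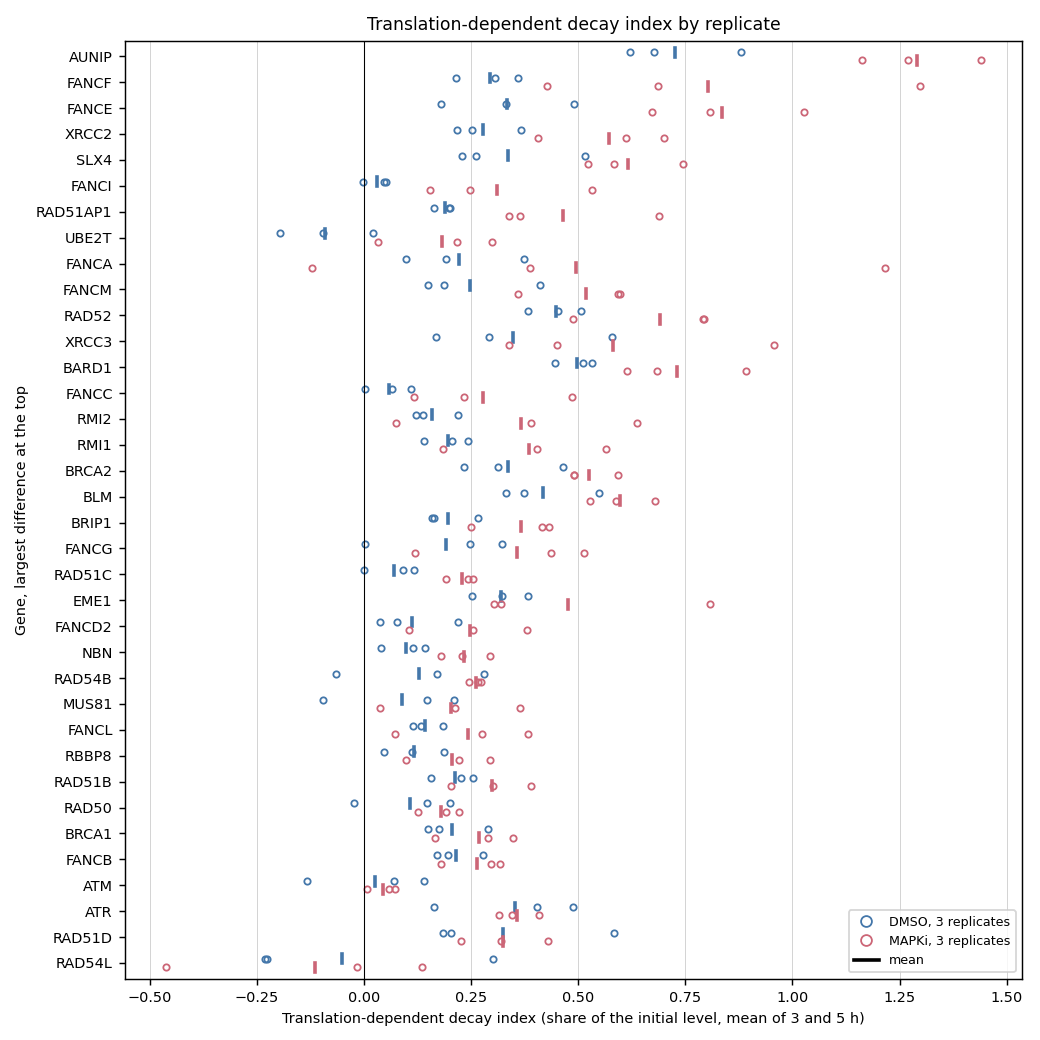
TDD index of 36 members by replicate, as a share of the initial level and the mean of 3 and 5 h, DMSO in blue and MAPKi in red, with bars for the means. AUNIP is at the top, with replicates at 0.621 to 0.881 for DMSO and at 1.16 to 1.44 for MAPKi.

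AUNIP had an index of 0.678, 0.621 and 0.881 in DMSO and 1.16, 1.27 and 1.44 in MAPKi, which did not overlap, for a difference of 0.565 ± 0.131 (SE, adjusted p = 0.113). FANCF had 0.305, 0.361 and 0.216 in DMSO and 0.428, 0.685 and 1.30 in MAPKi, separate but widely spread, with a difference of 0.510 ± 0.195 (SE, adjusted p = 0.267). FANCE had 0.489, 0.333 and 0.179 in DMSO and 0.672, 1.03 and 0.809 in MAPKi, a difference of 0.503 ± 0.148 (SE, adjusted p = 0.174) with no overlap. XRCC2 had 0.216, 0.254 and 0.367 in DMSO and 0.699, 0.406 and 0.613 in MAPKi, a difference of 0.294 ± 0.091 (SE, adjusted p = 0.192). At the other end, RAD51D had 0.585, 0.185 and 0.203 in DMSO and 0.320, 0.227 and 0.430 in MAPKi. RAD54L had 0.301, −0.230 and −0.225 in DMSO and −0.461, −0.016 and 0.136 in MAPKi. The groups of both genes overlapped, with differences of 0.001 ± 0.143 and −0.062 ± 0.401 (SE, adjusted p = 0.998 and 0.961).

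The coding sequences of the members were compared with those of 11933 tested genes, since the rule did not use them. The median member had 747 codons, against 474 over all genes. Codons ending in A or T made up 60.1% of the median member (range 21.8 to 73.3%) and 42.1% of the median gene, and 26 of 37 members lay above the latter. BRCA2 had the highest share among the members and RMI2 the lowest. The codons GAA and GAT together made up 7.31% and 5.09%, with 27 of 37 members above the median gene, and glutamate and aspartate 12.7% and 11.9%, with 23 of 37. Across the members, rank correlations of A- or T-ending share with the change in level, the decay and the cycloheximide effects lay between −0.24 and 0.03 over 36 or 37 genes, a description over genes that share all libraries.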

How the data were processed

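The authors trimmed reads with fastp 0.20.1, aligned them with HISAT2 2.2.1 to GRCh38 and counted them over exons with HTSeq 0.13.5, and the raw counts per gene were deposited for 96 libraries. Strand use in counting is not given in the sources used here, nor is any use of molecular identifiers. Counts were fitted with edgeR 4.0.16 (quasi-likelihood, 32 group means, R 4.3.3) over 14948 genes kept by filterByExpr, with Benjamini-Hochberg adjustment and calls under 0.05. TMM scaling was used without triptolide, and size factors over 36 stable genes with it. The TDD index was fitted per gene with limma 3.58.1 (lmFit, no moderation) on pretreatment, time and replicate number, pairing replicates by number as the study did, for genes with at least 10 scaled counts in each vehicle library at 0 h. Alternatives included DESeq2 1.42.0, other scalings, no filter and leaving out each replicate. The edgeR fit and the TDD model were tested on simulated data with TMM scaling. The simulation held no general decay after triptolide, so the scaling to stable genes was not tested. Gene positions are from GENCODE release 44. All 38 members may be named. Values by library follow ranks of change fixed for each comparison, apart from cycloheximide alone. The members and lists were chosen with earlier results of these data known.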

Additional observations from a re-analysis of the deposited data

Results flagged for a closer look

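The effect of a treatment differed between the DMSO and MAPKi pretreatments, by the interaction term of the edgeR quasi-likelihood fit, for the following members. BARD1 had a decay difference of 0.61 on the log2 scale, where 0.415% of genes were called in that direction, and it was not called without replicate 2 or 3. The effect of cycloheximide under triptolide differed by 0.98 for FANCE, 0.55 for XRCC2 and 0.55 for BRCA2. These 3 of 37 members are near the share of 6.82% of genes. Calls were lost without replicate 2 for FANCE, without replicate 1 or 2 for BRCA2 and without any 1 of the replicates for XRCC2. The scaling mattered as well: TMM called 1 member in this comparison, and the genes stable at 3 or 5 h called 2. The effect of cycloheximide alone differed by 1.00 for FANCF, 0.97 for XRCC2, 0.92 for EME1 and 0.87 for AUNIP. In the BRCA group it differed by 0.77 for BRCA2, 0.58 for BRIP1, 0.52 for BRCA1 and 0.47 for BARD1, with a background of 4.64% of genes. Calls were lost without any 1 of the replicates for FANCF and BRIP1, without replicate 1 for AUNIP and without replicate 3 for BARD1, and those of XRCC2, EME1, BRCA1 and BRCA2 were made in all 8 alternatives. XRCC2 and BRCA2 are in both of these sets. The comparisons use separate libraries at 3 and 5 h, but same-numbered libraries share a column prefix, so the sets are not shown to be independent. In MAPKi vehicle cells XRCC2, BRCA1 and EME1 also fell, and BARD1 rose, from 0 h to those times.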

How the results depend on the processing

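Leaving out 1 replicate gave 0 to 2 members higher in level, 3 to 4 higher with cycloheximide alone in DMSO, and 5 to 7 in its difference between pretreatments. It gave 0 lower in the drift in DMSO, 0 higher and 1 to 3 lower in the drift in MAPKi, 0 to 1 in the decay difference, 0 to 3 in the difference of cycloheximide under triptolide, and 4 to 6 in the TDD index at an unadjusted p up to 0.05. Vehicle at 0 h only left 0 members higher in level. With no filter on low counts the drift had 0 lower in DMSO and 0 higher in MAPKi, the triptolide arm at 0 h had 1 lower, the arm with both inhibitors at 0 h 1 lower, and the decay difference 0. DESeq2 size factors gave 0 lower in the DMSO drift, and the DESeq2 test 2 higher in the MAPKi drift. The decay difference was also 0 at 5 h only and with the triptolide arm as start, and mitochondrial rRNA scaling gave 0 higher and 1 lower there and 6 in the TDD index. TMM gave 15 lower and 1 higher in the DMSO decay, 13 lower and 4 higher in the MAPKi decay, 12 and 15 higher with cycloheximide under triptolide, 1 in its difference and 5 in the TDD index. The causes were not tested.

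The signs listed here are of members called in the reported fit, or called on the other side by the alternative. Members called in neither also turned and are not listed. Signs turned under total counts for RAD50 in level (0.14) and FANCD2 in the MAPKi decay (0.089). Under TMM they turned in the DMSO decay for FANCA (0.43), FANCD2 (0.046) and RAD51C (0.10), and in the MAPKi decay for FANCD2 (0.38), FANCI (0.64), RAD51B (0.55), RAD51C (0.20), RAD51AP1 (0.00095), RBBP8 (0.023) and ATM (0.015). With cycloheximide under triptolide they turned for RAD50 (−0.023) and RBBP8 (−0.0014) in DMSO and FANCI (−0.0033) and RAD50 (−0.024) in MAPKi.

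Nothing in the labels says that a replicate number marks a shared culture or day. The column headers of the counts do carry a shared prefix for each replicate number over all 32 groups. What that prefix stands for is not stated. The deviations of same-numbered libraries from their group means had a median r of 0.02 (lowest −0.38, highest 0.22), and 362 of 1488 were over 0.1. As not every r was over 0.1, the reported edgeR fits did not take the numbers as pairs. That rule could miss an effect shared by only some groups. The TDD index does pair libraries by number, as in the study. The share of mitochondrial rRNA was highest in replicate 1 in 28 of 32 groups, and its part in the results was not tested. With the replicate number as a block, 30 members were lower and 2 higher in level, 29 and 29 lower in the decays, and 21 and 30 higher with cycloheximide under triptolide. The block ended no member's call and added those of ATR in level (adjusted p = 0.0391), FANCE in the DMSO decay (0.0445), BRIP1 with cycloheximide alone in MAPKi (0.0447) and FANCB in its difference between pretreatments (0.0351). The TDD index without the block had 11 members at an unadjusted p up to 0.05. Genes with few counts, such as PALB2, FANCF and RAD54L, limit what these depths can show.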
